A study of Gallus gallus with 12 samples.

Results

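The photoreceptor phosphodiesterase PDE6 was followed through its 4 subunit genes in the deposited table, PDE6C, PDE6H, PDE6B and PDE6G. They were chosen by gene name as 4 of 24358 genes, and all 4 were among the 15284 genes kept for testing (at least 10 reads in at least 3 libraries). mRNA was measured by bulk RNA sequencing in 12 chicken (White Leghorn) libraries, 3 per group. The reference was normal E14 retina, meaning the central region of retina from embryos at embryonic day 14 that had not been electroporated. The other 9 libraries were MYCN-overexpressing cell lines, called DMC lines, grown in suspension from the GFP-positive regions of E14 retina. Those embryos had been electroporated in ovo at E3.5 with an integrating piggyBac vector, in which CAG, a strong promoter active in most cell types, drove human MYCN together with GFP. Young DMC lines (DMC8, DMC9 and DMC10) carried MYCN and had spent under 4 weeks in culture. Old DMC lines (DMC1, DMC2 and DMC3) carried MYCN and had spent over 200 days in culture. T58A DMC lines (DMC4, DMC5 and DMC6) carried the MYCN T58A variant and had also spent over 200 days in culture. The labels do not say that the 3 libraries of a group came from separate embryos for all groups, so p-values measure the spread between these libraries. The T58A titles carry medium tags, RPMI for DMC4 and DMC5 and DMEM for DMC6, although the growth protocol names a single medium for all lines.

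PDE6 is the effector enzyme of phototransduction. Light-activated opsin switches on the G protein transducin, transducin pulls the inhibitory subunits away from PDE6, and the freed catalytic subunits hydrolyse cyclic GMP, which closes the cyclic nucleotide-gated channels of the outer segment. In mammals the cone enzyme has PDE6C as its catalytic and PDE6H as its inhibitory subunit, whereas rods pair PDE6B with a second catalytic subunit and use PDE6G as the inhibitor. PDE6A, the partner of PDE6B in mammalian rods, was not analysed here. The genes carry the identifiers ENSGALG00000006626 (PDE6C), ENSGALG00000025735 (PDE6H), ENSGALG00000015373 (PDE6B) and ENSGALG00000004514 (PDE6G).

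The libraries held 20984957 to 35088450 reads assigned to genes. Human MYCN and GFP together took 0.528% to 2.70% of the reads in the DMC lines, with the lowest share in DMC5, and the 3 E14 retinas held 0 reads of human MYCN and at most 2 reads of GFP. DMC5 stood apart from the other T58A lines. Over the 15284 genes its log2 values correlated with r = 0.958 to the old line DMC3, but with r = 0.881 to DMC4 and r = 0.896 to DMC6. For that reason the T58A comparisons of the subunit genes are also given without DMC5. The calls of other pathway genes named below for T58A lines held without it, except those of GUCA1A and MEF2D against E14 retina. That of GUCA1A was lost. The call of MEF2D, marker calls and counts over gene lists were not repeated without it. Levels are given as normalized counts, that is, reads scaled by library total and trimmed mean of M-values (TMM) factor. Transcript lengths were not used here, so levels were compared between libraries and not between genes.

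PDE6C, the cone catalytic subunit, was nearly silent in E14 retina and was present in every DMC line. The normalized counts in E14 retina were 19.5, 11.4 and 12.7 (14.6 ± 4.34, SD, n = 3), resting on 22, 13 and 14 reads. In the young lines they were 4244 in DMC8, 243 in DMC9 and 2479 in DMC10. The DMC9 value was 17.5-fold below that of DMC8, yet it still exceeded the highest E14 value by 12.4-fold. The old lines had 2461 in DMC1, 619 in DMC2 and 654 in DMC3. The T58A lines had 189 in DMC4, 766 in DMC5 and 217 in DMC6. All 9 lines lay above all 3 E14 retinas. The share of all genes whose groups lie apart in this way is not given, here, for the genes below or for the other comparisons of groups.

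PDE6H, the cone inhibitory subunit, was detected in E14 retina at 413, 302 and 290 normalized counts (335 ± 67.7, SD, n = 3). The young lines held 12116 in DMC8, 2456 in DMC9 and 12712 in DMC10. The old lines held 12591 in DMC1, 3627 in DMC2 and 6854 in DMC3. The T58A lines held 5118 in DMC4, 8363 in DMC5 and 6801 in DMC6. DMC9 again had the lowest value, 5.95-fold above the highest E14 retina, and no DMC line overlapped with E14 retina. The 3 DMC groups overlapped with each other for this gene.

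PDE6B, the rod catalytic subunit, had the widest range of the 4 genes. Its normalized counts were 117, 121 and 203 in E14 retina (147 ± 48.4, SD, n = 3). The young lines reached 10751 in DMC8, 23728 in DMC9 and 21098 in DMC10. The old lines had 4142 in DMC1, 5390 in DMC2 and 15686 in DMC3, so the young and old lines overlapped. The T58A lines had 99.2 in DMC4, 1526 in DMC5 and 384 in DMC6. DMC4 therefore lay below all 3 E14 retinas, DMC5 and DMC6 lay above them, and all 3 T58A lines lay below every young and every old line.

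PDE6G, the rod inhibitory subunit, was at 216, 181 and 200 normalized counts in E14 retina (199 ± 17.6, SD, n = 3). The young lines had 5604 in DMC8, 4087 in DMC9 and 2623 in DMC10. The old lines had 8866 in DMC1, 4383 in DMC2 and 6756 in DMC3. The T58A lines had 6643 in DMC4, 2571 in DMC5 and 2559 in DMC6. Even the lowest line, DMC6, was 11.9-fold above the highest E14 retina. DMC4, the line with the least PDE6B, held more PDE6G than any young line.

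**Figure D1:**
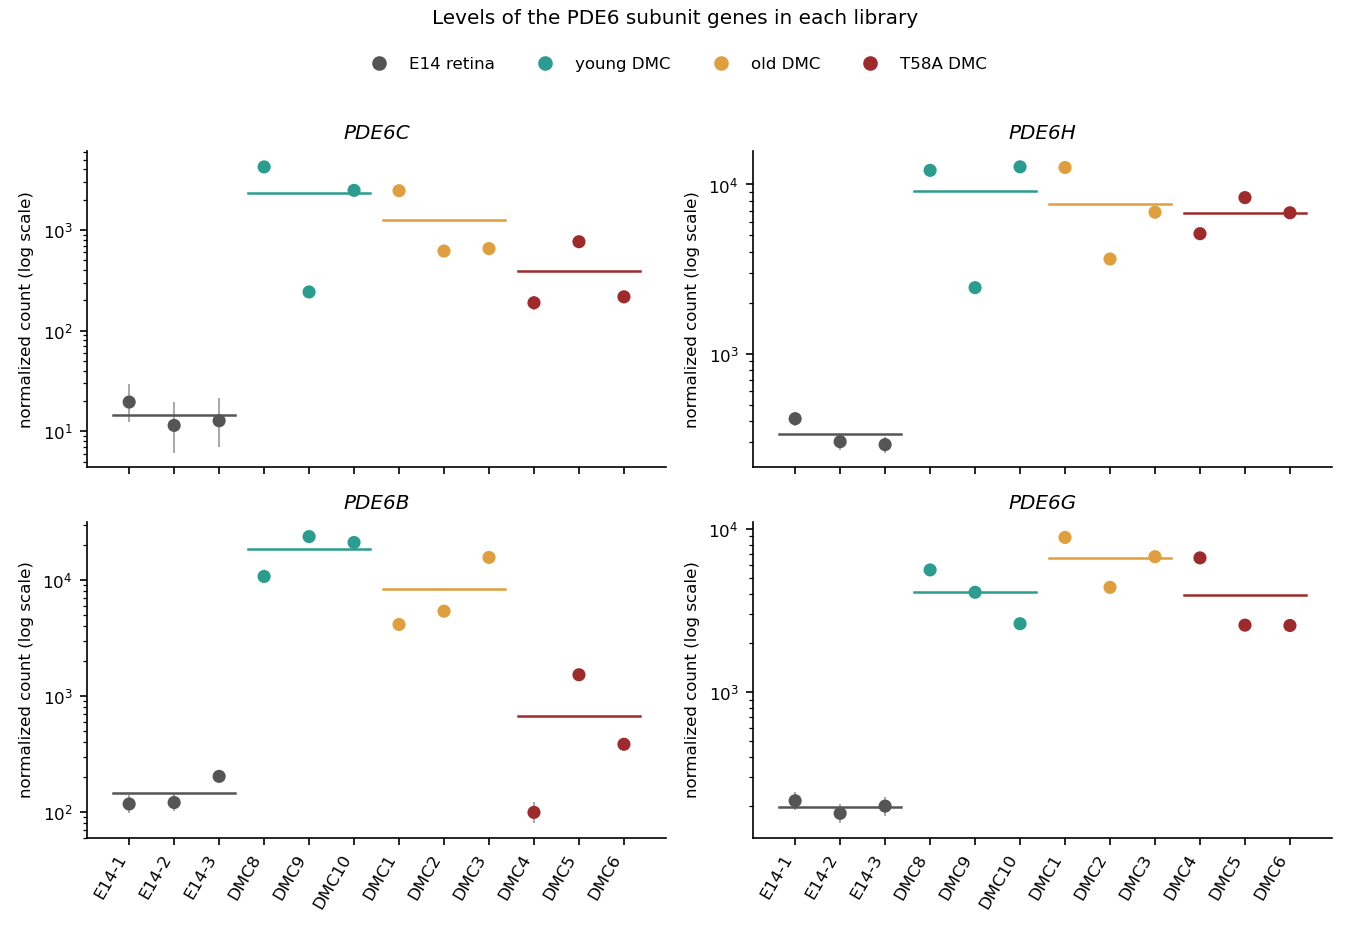
Normalized counts (log axis) of the 4 PDE6 subunit genes in each of the 12 libraries. Points are libraries with 95% Poisson intervals, which cover counting error only, and horizontal lines are group means. All 9 DMC lines lie above the E14 retinas for PDE6C, PDE6H and PDE6G, whereas PDE6B in DMC4 (99.2) lies below them.

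The comparison with E14 retina asks which transcripts differ between cultured MYCN-transformed cells and normal E14 retina from embryos without electroporation. MYCN and growth in culture change together in each comparison with E14 retina, so they cannot be told apart. All 4 subunit genes rose in young DMC lines (limma on log2 normalized counts plus 1, 12 libraries, Benjamini-Hochberg adjustment). A gene was called if its adjusted p did not exceed 0.05 and its log2 fold change was 1 or more in size. Of all genes tested, 43.5% were called in this comparison and 20.5% were called higher. PDE6B had the largest rise of the 4, with a log2 fold change of 6.94 ± 0.81 (SE, limma adjusted p = 4.21e-05), which ranked 48th from the top of 15284 genes. PDE6C followed at 6.49 ± 0.96 (limma adjusted p = 2.06e-04), a 90.1-fold difference with a 95% interval of 21.1 to 384. The inhibitory subunits rose less. PDE6H gave 4.45 ± 0.59 (limma adjusted p = 9.73e-05) and PDE6G gave 4.30 ± 0.40 (limma adjusted p = 9.69e-06), 21.8-fold and 19.7-fold.

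All 4 genes also rose in old DMC lines, where 43.8% of all genes were called and 20.3% were called higher. The log2 fold changes over E14 retina were 6.04 for PDE6C (limma adjusted p = 3.38e-04), 5.62 for PDE6B (limma adjusted p = 1.76e-04), 5.01 for PDE6G (limma adjusted p = 3.78e-06) and 4.36 for PDE6H (limma adjusted p = 1.14e-04). In T58A DMC lines 3 of the 4 rose, against a background of 44.5% of genes called and 19.6% called higher. PDE6C gave 4.38 (limma adjusted p = 0.00258), PDE6H gave 4.32 (limma adjusted p = 1.17e-04) and PDE6G gave 4.14 (limma adjusted p = 1.21e-05). The rise of PDE6C in these lines was not called with voom weights (limma adjusted p = 0.102). PDE6B did not pass, at 1.44 with a 95% interval of −0.33 to 3.21 (limma adjusted p = 0.153). Its call turned on DMC4, since without that line the log2 fold change was 2.42 (limma adjusted p = 0.0112). Without DMC5 the same 3 genes were called, and PDE6B was at 0.46 (limma adjusted p = 0.567). The 3 comparisons share the E14 libraries.

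E14 retina is a mixed tissue, and in bulk RNA fewer cells of a type and less RNA per cell cannot be told apart. Marker lists of the other retinal cells moved with the contrast against E14 retina. Of all 15284 genes tested, 3512, 3588 and 3795 were called lower in young, old and T58A lines. The summed level of 8 amacrine and horizontal cell markers in E14 retina was 23021 to 26523 normalized counts, against 1921 to 2428 in young, 939 to 3168 in old and 616 to 1350 in T58A lines, with 7 of 8 lower in each comparison and PRDM13 at 0 in all 9 lines. Bipolar markers (3 of 4 lower in each comparison) summed to 38180 to 45324 in E14 retina and to 669 to 2900 over the DMC lines. Müller glia markers (4 of 5 lower) went from 7780 to 8440 in E14 retina to 729 to 2220. Ganglion cell markers summed to 11396 to 12715 in E14 retina and 2979 to 6444 in the DMC lines, with 6, 5 and 4 of 8 lower in young, old and T58A lines. NEFM on the same list rose in young lines, from a mean of 194 to 3470. Blood and vessel markers (4 of 4 tested lower in each comparison) went from 5338 to 10088 to 310 to 1263. The part of these markers in the PDE6 results was not tested. The 6 photoreceptor markers found (OTX2, ARR3, THRB, RXRG, GNAT2 and RAX2) summed to 42347 to 51127 in E14 retina, 50661 to 59006 in young and 32405 to 48477 in old lines, and none of them was at 0 in any group. Their members moved in different directions. Between E14 retina and young lines the mean of ARR3 went from 205 to 8852, the only call, that of THRB from 974 to 4510 and that of RXRG from 10701 to 24857, while OTX2 went from 26513 to 14737 and GNAT2 from 6454 to 1200. OTX2 and GNAT2 were called lower in old and T58A lines, RAX2 was called lower in T58A lines, and ARR3 was called higher in old lines. Pigment epithelium markers summed to 210 to 280 in E14 retina and 23416 to 73186 in the DMC lines, nearly all of it PMEL. RPE65 was also called higher in young and old lines, with means of 8.05 in E14 retina, 54.3 in young and 29.2 in old lines. MITF was called higher in T58A lines, from a mean of 56.8 to 957. That mean rested mostly on DMC6, with 2152 reads against 165 in DMC4 and 181 in DMC5. TYR was called lower in old lines, from 10.1 to 0.32.

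Between the DMC groups, time in culture and the MYCN variant were compared. None of the 4 genes was called between old and young lines (limma, 0.196% of all genes called, 30 genes, with 1428 at an unadjusted p under 0.05, of which 0 were subunit genes). The log2 differences were −1.31 for PDE6B (95% interval −3.08 to 0.46), −0.45 for PDE6C (−2.55 to 1.64), −0.091 for PDE6H (−1.38 to 1.19) and 0.71 for PDE6G (−0.16 to 1.58). These intervals are wide, and a change of several fold in either catalytic subunit lies within them.

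PDE6B was the member that separated T58A lines from the MYCN lines. It was lower in T58A than in young lines by a log2 difference of −5.49 ± 0.81 (SE), 45.1-fold with a 95% interval of 13.2 to 154 (limma adjusted p = 0.00686), in a comparison where 6.17% of all genes were called. All 3 T58A lines lay below all 3 young lines. Variant and time in culture change together here and cannot be told apart. The call was lost when the fit held only those 6 libraries (limma adjusted p = 0.0918). It held without DMC5, with a log2 difference of −6.48 (limma adjusted p = 1.73e-04). DMC5 had the most PDE6B of the T58A lines, so leaving it out had to widen the difference. Without DMC4, the line with the least PDE6B, the call also held and the log2 difference was −4.52. In the fit without DMC5 the count of all genes called between T58A and young lines rose from 943 to 3463. Against old lines, which match the T58A lines in time in culture, PDE6B differed by −4.18 and did not pass (95% interval −5.95 to −2.41, limma adjusted p = 0.0762), although the groups did not overlap. In that comparison 0.0393% of genes were called, which is 6 genes, with 3016 at an unadjusted p under 0.05. Without DMC5 the count of all genes rose to 2610, and PDE6B was among them at −5.17 (limma adjusted p = 7.68e-04). Without DMC4 its log2 difference was −3.20, and it was not called.

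The other 3 subunit genes were not called between T58A and either group of MYCN lines. For PDE6C the log2 differences were −2.11 against young (95% interval −4.20 to −0.018, limma adjusted p = 0.181) and −1.66 against old lines (limma adjusted p = 0.351). PDE6C against young lines was called when DMC9, the young line with little PDE6C, was left out (−3.36, limma adjusted p = 0.0479). The inhibitory subunits had smaller log2 differences than PDE6C, but each 95% interval includes a fall as large as the fold threshold. PDE6H differed by −0.13 against young lines (95% interval −1.41 to 1.16) and by −0.035 against old lines (0.98-fold, 95% interval 0.40 to 2.38), signs that turned with the scaling of the libraries. PDE6G differed by −0.15 against young (−1.02 to 0.71), a sign that turned without TMM factors, and by −0.86 against old lines (−1.73 to 0.0056). Without DMC5, PDE6C was at −2.75 against young and −2.29 against old lines, PDE6H at −0.29 and −0.20, and PDE6G at 0.074 and −0.64, none of them called.

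**Figure D2:**
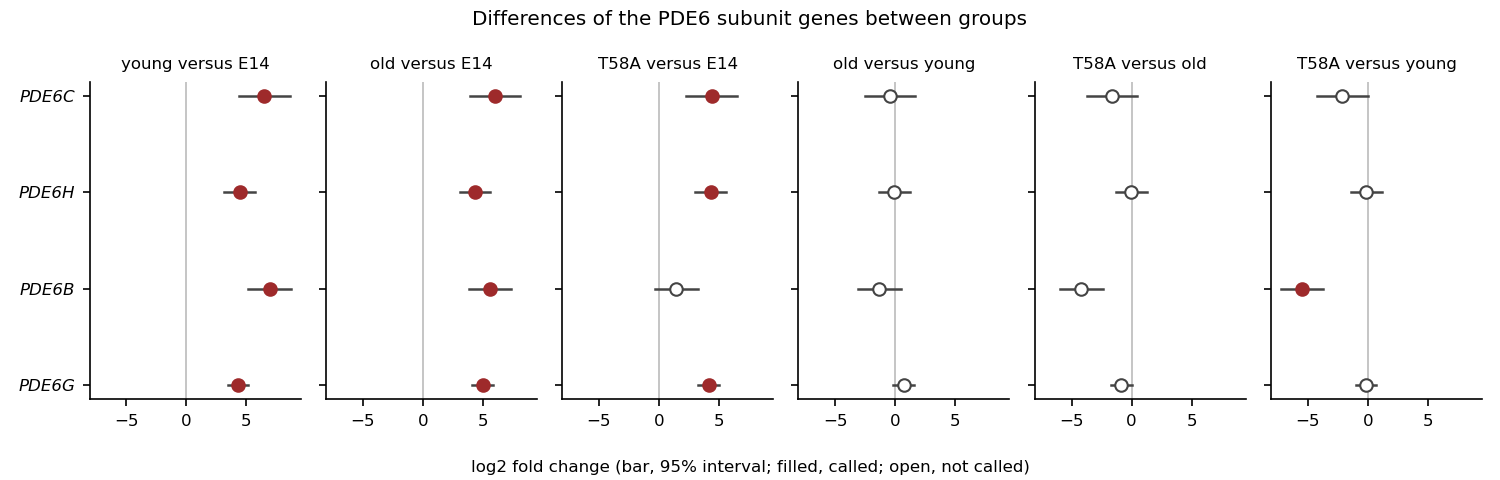
Log2 fold changes (horizontal axis) of the 4 subunit genes in the 6 comparisons, the first group relative to the second. Bars are 95% intervals from limma, filled points are called and open points are not. Among the DMC groups the only filled point is PDE6B in T58A against young lines, at −5.49.

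Among the T58A lines the summed photoreceptor markers followed the order of PDE6B. So did OTX2 and GNAT2, while ARR3, THRB, RXRG and RAX2 did not. The 6 photoreceptor markers summed to 6695 normalized counts in DMC4 and 8650 in DMC6, the lines with 99.2 and 384 of PDE6B, and to 59918 in DMC5, which had 1526. The sum was not shared by all its members. ARR3 was at 349 in DMC4, 150 in DMC6 and 136 in DMC5, against 6817 to 10123 in young lines. RXRG held 1534 reads in DMC4, 1142 in DMC6 and 26704 in DMC5. In the same order THRB held 386, 322 and 6337 reads and RAX2 held 338, 118 and 1882. GNAT2 was at 498 in DMC5 and 808 to 1875 in young lines. The part of these markers in the PDE6B difference was not tested. In DMC4, where the marker sum was lowest, PDE6H was at 5118 and PDE6G at 6643. Only ARR3 among the 6 markers was called lower in T58A than in young lines. PDE6B lies on chromosome Z in the RefSeq gene table. Reads of the W-linked gene HINTW, which marks female birds, were 17170 to 38062 in the 3 old lines and 17327 in DMC10. They were 0 in DMC8, DMC9, DMC4 and DMC6 and 12 in DMC5. Sex and MYCN variant therefore cannot be told apart between T58A and old lines. Old and young lines also differed in sex, since only DMC10 of the young lines held HINTW. In E14 retina, replicate 3 held 15587 HINTW reads and replicates 1 and 2 held 0, with PDE6B at 203, 117 and 121 normalized counts. Within the young group PDE6B was at 10751 and 23728 in the lines without HINTW and at 21098 in the line with it.

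The order of group means was young, old, T58A and E14 retina for PDE6C (2322, 1245, 391 and 14.6), for PDE6H (9095, 7691, 6761 and 335) and for PDE6B (18526, 8406, 670 and 147). For PDE6C and PDE6H the neighbours young and old, and old and T58A, did not differ beyond their spread, while T58A and E14 retina did. For PDE6B none of the neighbouring pairs was called. PDE6G had the order old, young, T58A and E14 retina (6668, 4105, 3924 and 199), with only the last step called.

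The subunit genes differed in how much they varied over the 9 DMC lines, a spread that includes the differences between the 3 groups. Over the 9 DMC lines the SD of log2 normalized counts was 2.74 for PDE6B, larger than that of 98.8% of the 15284 genes, with a 239-fold range between DMC4 and DMC9. For PDE6C the SD was 1.66, larger than that of 89.9% of genes, with a 22.4-fold range. The inhibitory subunits varied less, with an SD of 0.83 for PDE6H and 0.68 for PDE6G beside a median of 0.63 over all genes. Among the 1001 genes nearest in level the SD was larger than that of 90.9% for PDE6H and 83.6% for PDE6G, against 98.8% for PDE6C and 99.9% for PDE6B. In both pairs the catalytic subunit thus had the larger SD over the 9 lines. Within young, old and T58A lines the highest over lowest value was 2.21, 3.79 and 15.4 for PDE6B and 2.14, 2.02 and 2.60 for PDE6G. For PDE6C it was 17.5, 3.98 and 4.04, and for PDE6H it was 5.18, 3.47 and 1.63.

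The cone subunits varied together among lines. PDE6C and PDE6H correlated over the 9 lines with Pearson r = 0.78 (exact permutation p = 0.0116, adjusted over 6 pairs p = 0.0696) and Spearman rho = 0.82 (exact permutation p = 0.0108, adjusted p = 0.0646). The adjusted values did not pass 0.05. Without DMC8 and DMC10, the lines farthest from the median of PDE6C, r was 0.66, and without DMC5 it was 0.79. After subtraction of the 3 group means r was 0.92. The rod subunits showed no such relation, with r = 0.019 for PDE6B and PDE6G (exact permutation p = 0.966, rho = 0.05) and r = −0.64 after subtraction of the group means. The remaining pairs had r = 0.54 (PDE6C and PDE6B, exact permutation p = 0.127), 0.17 (PDE6C and PDE6G), 0.057 (PDE6H and PDE6B) and 0.046 (PDE6H and PDE6G). For PDE6H and PDE6B, rho was 0.067, and r after subtraction of the group means was 0.011. Without DMC2 and DMC9, the lines farthest from the median of PDE6H, r was 0.73. DMC9 had the highest PDE6B of all lines and the lowest PDE6H.

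**Figure D3:**
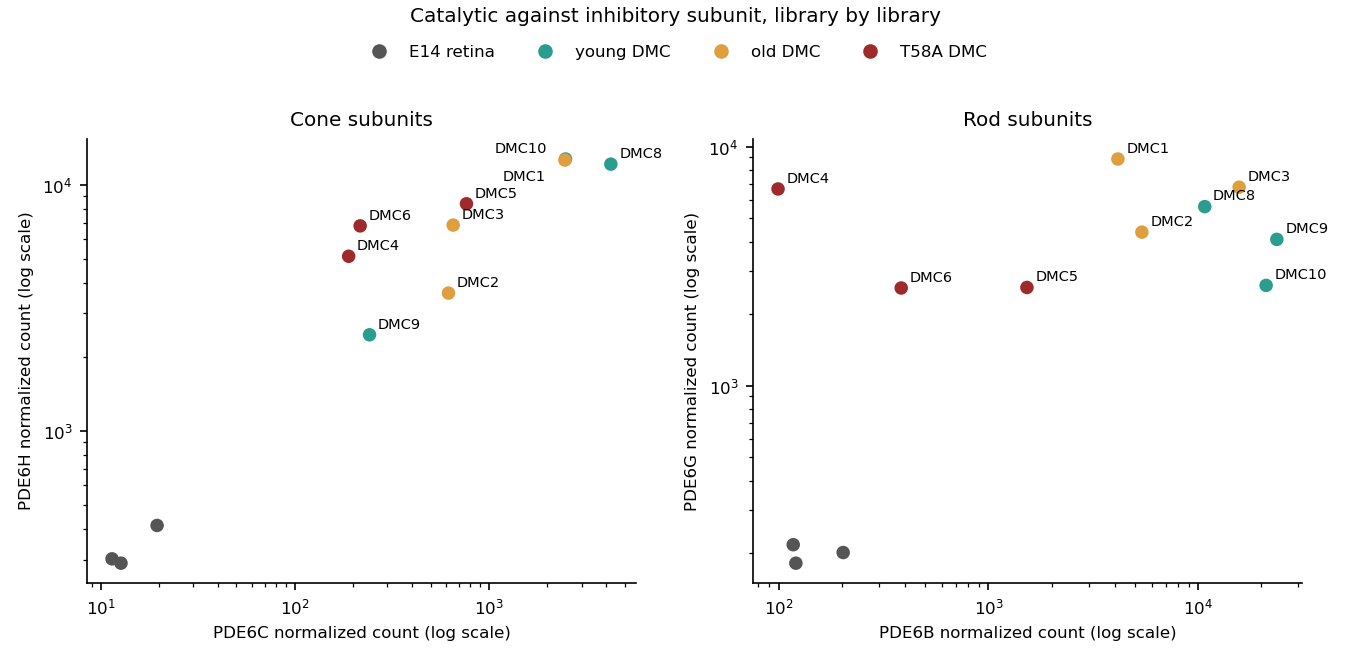
Catalytic against inhibitory subunit in each library, in normalized counts on log axes, for the cone pair (left) and the rod pair (right). Points are libraries coloured by group. The cone pair rises together over the 9 DMC lines (r = 0.78), whereas PDE6B spans 99.2 to 23728 at PDE6G levels of 2559 to 8866.

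Ratios of reads within a library do not depend on how libraries are scaled, and 4 ratios were compared by exact permutation of libraries (two-sided, 28 tests). An exact permutation test of 3 against 3 cannot go below p = 0.1, and none of the 28 tests had an adjusted p below 0.28. The cone ratio of PDE6C to PDE6H was 0.0379 to 0.0473 reads per read in E14 retina. In young lines it was 0.350 in DMC8, 0.0988 in DMC9 and 0.195 in DMC10, and in old lines it was 0.195 in DMC1, 0.171 in DMC2 and 0.0955 in DMC3. All 6 MYCN lines thus had more PDE6C relative to PDE6H than E14 retina, by log2 differences of 2.06 for young and 1.69 for old lines (exact permutation p = 0.1 for each). The T58A lines had 0.0370 in DMC4, 0.0916 in DMC5 and 0.0319 in DMC6. They overlapped with E14 retina and lay below all young lines (log2 difference −1.98) and all old lines (−1.62, exact permutation p = 0.1 for each), by −2.45 and −2.09 without DMC5. Over all 9 DMC lines the log2 difference from E14 retina was 1.27 (exact permutation p = 0.0909).

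The rod ratio of PDE6B to PDE6G was higher in all young lines than in any E14 retina or T58A line. It was 0.543, 0.668 and 1.01 in E14 retina. In young lines it was 1.92 in DMC8, 5.81 in DMC9 and 8.04 in DMC10, and in old lines it was 0.467 in DMC1, 1.23 in DMC2 and 2.32 in DMC3. The T58A lines had 0.0149 in DMC4, 0.593 in DMC5 and 0.150 in DMC6. Young lines lay above E14 retina by 2.64 on the log2 scale and T58A lines lay below young lines by −5.34 (exact permutation p = 0.1 for each), −6.55 without DMC5. Over all 9 lines the shift from E14 retina was 0.19 (exact permutation p = 0.827).

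Between the catalytic subunits, the ratio of PDE6B to PDE6C was 6, 10.5 and 15.9 in E14 retina and ranged from 2.53 in DMC8 to 97.8 in DMC9 among young lines. In T58A lines it was 0.524, 1.99 and 1.77, below all E14 retinas (log2 difference −2.95) and all young lines (−3.38, exact permutation p = 0.1 for each), by −3.30 and −3.73 without DMC5. The inhibitory ratio of PDE6G to PDE6H was 0.523 to 0.690 in E14 retina, 0.206 to 1.66 in young, 0.704 to 1.21 in old and 0.307 to 1.30 in T58A lines. Only the old lines were clear of E14 retina for this ratio, by a log2 difference of 0.65 (exact permutation p = 0.1). The DMC lines as a whole differed from E14 retina by −0.98 in the ratio of PDE6B to PDE6C (exact permutation p = 0.5) and by 0.11 in that of PDE6G to PDE6H (exact permutation p = 0.855).

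**Figure D4:**
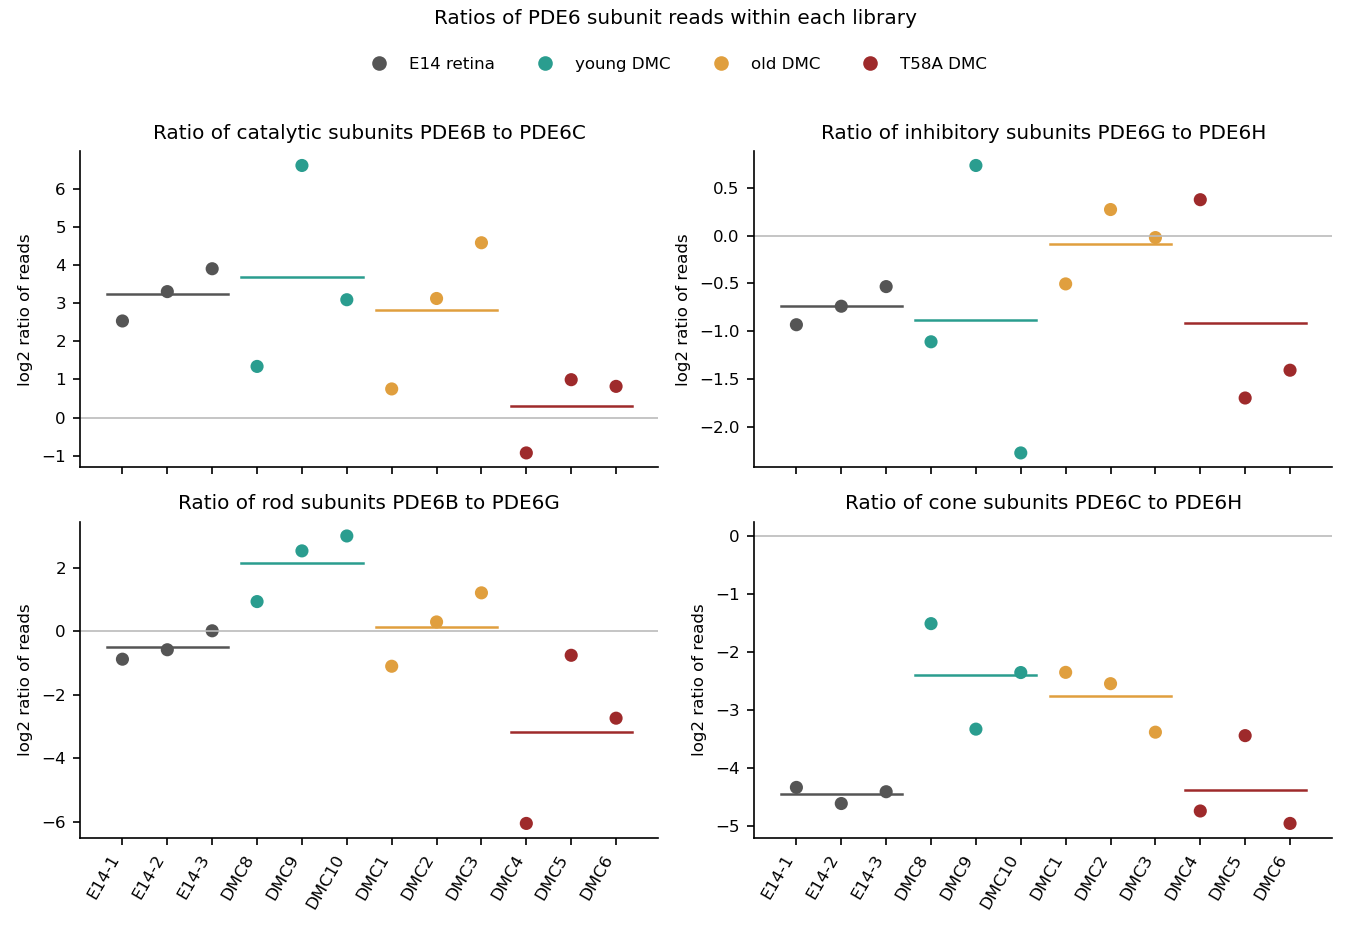
Log2 ratio of reads (vertical axis) between subunit genes within each of the 12 libraries, with group means as lines. The ratio of PDE6B to PDE6G is above all E14 retinas in the 3 young lines and lowest in DMC4, and the ratio of PDE6C to PDE6H is above all E14 retinas in the 6 young and old lines.

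The catalytic subunits need chaperones and lipid anchors, so 13 genes of this machinery were examined in the same fit. In young lines 1 rose and 2 fell, in old lines 1 rose and 3 fell, and in T58A lines 1 rose and 4 fell, beside 43.5%, 43.8% and 44.5% of all genes called. These lists are small, and their counts are given as a description. The chaperone list had median log2 fold changes of 0.29, 0.32 and −0.39 beside −0.031, −0.049 and −0.096 over all genes. AIPL1, the co-chaperone that folds PDE6 in photoreceptors, had the largest change of the list in old and T58A lines. Its normalized counts were 2930, 2755 and 2036 in E14 retina, 1078 to 1923 in young, 310 to 476 in old and 148 to 317 in T58A lines, with no overlap between E14 retina and any DMC group. AIPL1 fell relative to E14 retina, with log2 fold changes of −2.71 in old lines (limma adjusted p = 5.11e-05) and −3.66 in T58A lines (limma adjusted p = 7.13e-06). In young lines it was at −0.79 and did not pass (limma adjusted p = 0.0582). AIPL1 was also lower in T58A than in young lines by −2.87 (limma adjusted p = 0.00306). That call was lost in the fit of only the 6 libraries compared (limma adjusted p = 0.0556). Its difference of −1.92 between old and young lines passed narrowly (limma adjusted p = 0.0463), but it held in only 8 of 23 alternatives, with adjusted p up to 0.190. The subunits and AIPL1 thus went in opposite directions in old lines.

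PDE6D, the prenyl-binding protein that carries PDE6 through the photoreceptor, is named for PDE6 but is no subunit of the core enzyme. Its normalized counts were 1493, 1376 and 1607 in E14 retina, 1142, 1140 and 1042 in young, 802, 870 and 1098 in old and 387, 735 and 826 in T58A lines. All 9 DMC lines were thus below all 3 E14 retinas, a separation whose share over all genes is not given. Of all genes, 43.5% to 44.5% were called in these comparisons. The fall was called in T58A lines, at −1.27 ± 0.26 (SE, limma adjusted p = 0.00195), a call that DMC4 decided since the log2 fold change was −0.93 without it. It was not called in young (−0.43, limma adjusted p = 0.197) or old lines (−0.70, limma adjusted p = 0.0429, under the fold threshold). FNTB, the beta subunit of farnesyltransferase, rose in all 3 comparisons by 1.35, 1.16 and 1.41 (held in 22, 20 and 23 of 23 alternatives). RPGR, a ciliary protein of photoreceptors, fell in all 3 by −1.07, −1.17 and −1.98 (held in 19, 21 and 23). INPP5E, a ciliary phosphatase whose transport depends on PDE6D, fell in young (−1.11, held in 20) and old lines (−1.27, held in 23).

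Genes of the cone cascade were set beside the cone subunits. Of 17 tested, 4 rose and 0 fell in young lines, 4 rose and 2 fell in old lines, and 1 rose and 6 fell in T58A lines, beside the same shares of all genes called (43.5%, 43.8% and 44.5%). The largest rises were those of the guanylate cyclase activators, calcium sensors that restart cyclic GMP synthesis after PDE6 has depleted it. GUCA1A in E14 retina was at 1.78, 0 and 0 normalized counts, against 443 to 3204 in young, 31.9 to 1102 in old and 1.11 to 109 in T58A lines. It was called higher in young (limma adjusted p = 2.60e-04) and old lines (limma adjusted p = 0.00181). GUCA1B rose too, with log2 fold changes of 6.42 and 5.19, values that depend on the pseudocount of 1 because E14 retina held few reads. The T58A call of GUCA1A (limma adjusted p = 0.0472) held in 11 of 22 alternatives. Without DMC5 it was among those lost (limma adjusted p = 0.151). ARR3, cone arrestin, rose by 5.67 in young lines (limma adjusted p = 7.68e-06).

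GNAT2, the cone transducin that activates PDE6, moved the other way. Its normalized counts were 4681, 6855 and 7828 in E14 retina, 808 to 1875 in young, 217 to 1348 in old and 1.11, 498 and 25.3 in DMC4, DMC5 and DMC6. GNAT2 fell in T58A lines with a log2 fold change of −7.70 (limma adjusted p = 0.00113). In old lines it was at −3.94 (limma adjusted p = 0.0412), a call that held in 13 of 23 alternatives. CNGB3, a subunit of the cone channel, fell by 4.12 in T58A lines (limma adjusted p = 0.0106). The calls of AIPL1, GNAT2 and CNGB3 between T58A lines and E14 retina held without DMC5. Of all genes, 6.17% were called between T58A and young lines, with 598 of 15284 lower. In that comparison 5 of the 17 genes of the cone cascade fell and 0 rose, with a median log2 difference of −2.76 beside −0.043 over all genes. They included ARR3 at −5.49 and GUCA1A at −6.19 (held in 12 of 23 alternatives). They also included GUCA1B at −5.18 and RD3, a regulator of retinal guanylate cyclase, at −2.76 (each held in 20 of 23 alternatives). The cone inhibitory subunit PDE6H was at −0.13 in the same comparison.

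Genes of the rod cascade were set beside the rod subunits. Of 7 genes tested, 0 rose and 2 fell in young lines, 1 rose and 2 fell in old lines, and 0 rose and 3 fell in T58A lines, no larger a share than the 43.5%, 43.8% and 44.5% of all genes called. GNAT1, the rod transducin, was at 178, 286 and 278 normalized counts in E14 retina and at 4.43 to 16.5 in young lines, and it was at 0 reads in DMC2, DMC3 and all 3 T58A lines. GNAT1 fell by 4.91 on the log2 scale in young lines (limma adjusted p = 7.30e-05), where PDE6B rose by 6.94 and PDE6G by 4.30. GRK1, a receptor kinase of photoreceptors, fell with log2 fold changes of −2.16 in young (held in 15 of 23 alternatives), −4.23 in old and −6.39 in T58A lines. SLC24A1, the rod sodium, calcium and potassium exchanger, was the gene that rose in old lines (2.40, limma adjusted p = 0.0383), from 0.88 to 2.73 normalized counts in E14 retina to 6.74 to 16.9, a call that held in 10 of 18 alternatives.

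**Figure D5:**
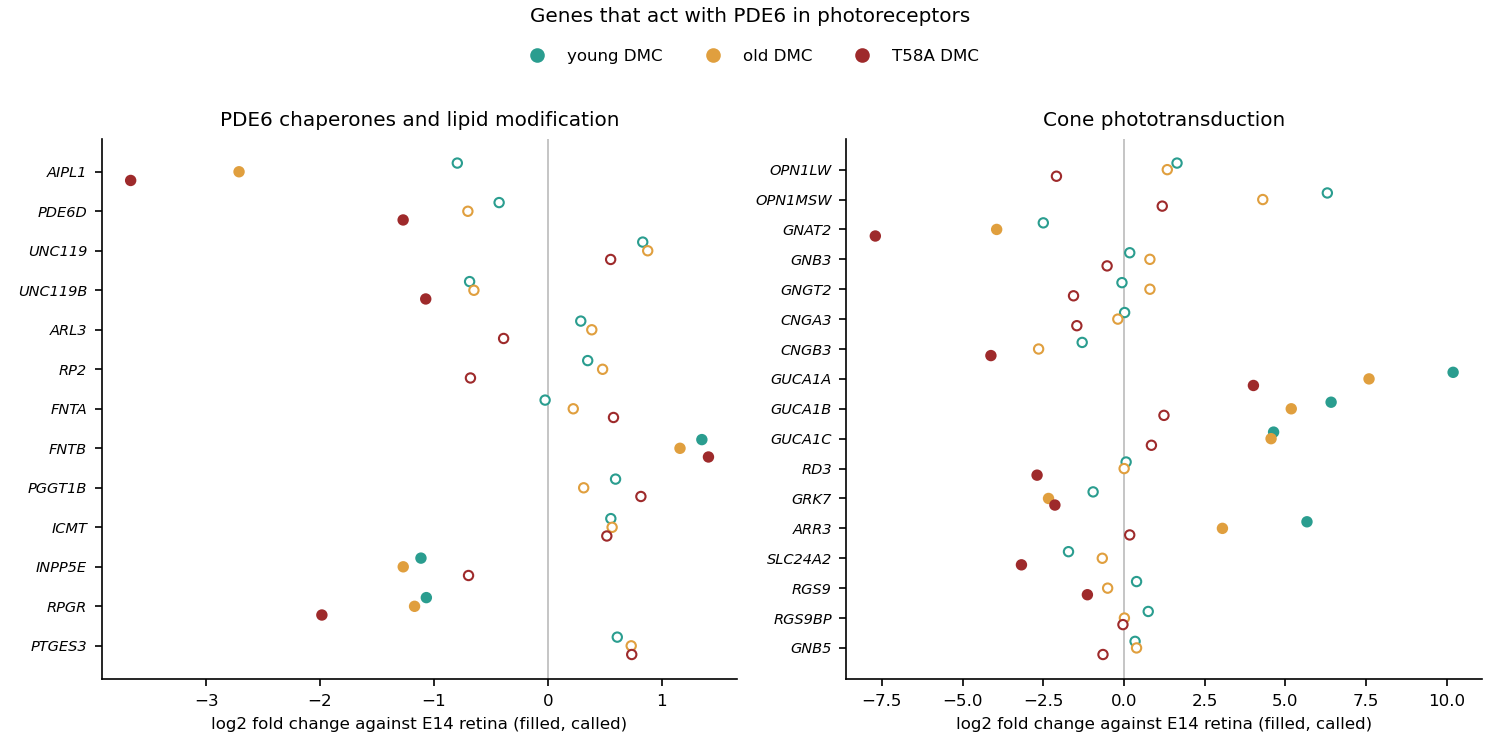
Log2 fold changes against E14 retina (horizontal axis) of genes that act with PDE6, for the chaperone and lipid modification genes (left) and the cone cascade (right), in young, old and T58A lines. Filled points are called and open points are not. AIPL1 lies at −2.71 in old and −3.66 in T58A lines, and GNAT2 at −7.70 in T58A lines, while ARR3 lies at 5.67 in young lines.

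Other phosphodiesterase families were examined in the same fit. Of 16 genes tested, 2 rose and 4 fell in young lines, 4 rose and 5 fell in old lines, and 1 rose and 4 fell in T58A lines, where 43.5%, 43.8% and 44.5% of all genes were called. PDE1C, a calmodulin-dependent enzyme, fell with log2 fold changes of −4.42, −4.68 and −4.52 in young, old and T58A lines. PDE9A, which hydrolyses cyclic GMP with high affinity, fell with −4.29, −4.78 and −3.91. PDE7B, which is specific for cyclic AMP, rose with log2 fold changes of 3.03, 2.53 and 2.32 in young, old and T58A lines. None of the 16 had a rise as large as that of any subunit in the same comparison of young or old lines with E14 retina.

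Of 14 photoreceptor transcription factors tested, 0 rose and 5 fell in young lines, 1 rose and 7 fell in old lines, and 1 rose and 10 fell in T58A lines, beside 43.5%, 43.8% and 44.5% of all genes called and 20.5%, 20.3% and 19.6% of all genes called higher. MEF2D was the gene that rose, with log2 fold changes of 1.31 in old and 1.38 in T58A lines. THRB was at 2.14, 1.85 and 0.13 and RXRG at 1.23, 0.76 and −1.35 in young, old and T58A lines, none of them called. The T58A values averaged unlike lines. THRB held 386, 6337 and 322 reads in DMC4, DMC5 and DMC6, against 1074 to 1109 in E14 retina. RXRG held 1534, 26704 and 1142 reads, against 9940 to 13464. NEUROD4, a proneural factor, fell with log2 fold changes of −5.65, −5.08 and −6.76 in young, old and T58A lines. TBX2, a T-box factor, fell with −4.12, −5.23 and −6.19. RAX, a homeobox factor of the early retina, fell in old (−3.39) and T58A lines (−3.64) and was lower in T58A than in young lines (−2.63, limma adjusted p = 0.0306, held in 16 of 23 alternatives).

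The genes whose levels over the 9 DMC lines were most like those of each subunit were ranked by Pearson correlation of log2 normalized counts, as a description. For PDE6C they were MGLL (r = 0.947), SRSF5, RCN1, MPP4 and GUCA1C (r = 0.938), and 30 genes exceeded r = 0.9. For PDE6B they included CABP4 (r = 0.974), COG7, PROS1 and gga-mir-183 (r = 0.963), and 204 genes exceeded r = 0.9. For PDE6H the list was GPR155 (r = 0.939), EEF1A2, PDC, ITGA8 and RIC8A (r = 0.875), and 1 gene exceeded 0.9. PDC encodes phosducin, a photoreceptor protein that binds transducin subunits, and CABP4 a calcium-binding protein of photoreceptor synapses. For PDE6G the list was FRMD7 (r = 0.930), RELL2, IL20RA, CD151 and ASB2 (r = 0.902). Some of these genes had low levels. The highest line had 6.74 normalized counts for FRMD7, 3.75 for RELL2 and 16.2 for gga-mir-183 of the PDE6B list. The likeness did not always extend to E14 retina, since CABP4 correlated with PDE6B at r = 0.11 and COG7 at r = 0.97 when all 12 libraries were used.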

How the data were processed

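Bulk mRNA (polyA-selected, stranded TruSeq) was sequenced in 12 libraries in 4 groups of 3, grouped by their sample titles. Per the labels, the authors counted reads per gene with featureCounts 2.0.0 on galGal6 and normalized them with edgeR (trimmed mean of M-values, TMM). The deposited values have the unit signal: each was found to be a whole count divided by 1 of 12 TMM constants (100% of 205632 values above 0), but only 8.36% by the constant of their own library. Reads were therefore recovered by multiplication and rescaled by library total and own TMM factor to normalized counts. No count model was run, because the deposited values are not counts. Of 24358 genes, 15284 with at least 10 reads in at least 3 libraries were tested with limma 3.58.1 (R 4.3.3) on log2(normalized count + 1), with a trend, all 12 libraries and Benjamini-Hochberg adjustment. Fold changes are on that scale, which understates changes of genes with few reads. Ratios and correlations were tested by exact permutation in Python 3.11.15. Scripts were tested on simulated data. Library totals were 20984957 to 35088450 reads. Poisson intervals cover counting error only.

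The 4 subunit genes and all gene lists were chosen with earlier results of these data known. Named genes were the 4 subunits, PDE6D, the called genes of each list with the largest changes (up to 4 per list and comparison) and the 5 most alike genes per subunit, of which 1 for PDE6B is not reported here. HINTW, PRDM13, NEFM, MEF2D, the photoreceptor markers, PMEL, RPE65, MITF and TYR were named after their values were seen. Symbols came from the deposited table and, for 1204 genes, from RefSeq (GRCg7b). Alternatives were other scalings, pseudocounts of 0.1 and 10, other filters, voom weights, a fit of only the 6 libraries compared, and each library left out in turn. The correlation without DMC5 was chosen after seeing the data. Transcript lengths and sequences were not used here.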

Additional observations from a re-analysis of the deposited data

Results flagged for a closer look

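Between T58A and young DMC lines, where variant and time in culture change together and cannot be told apart, PDE6B differed. Its log2 fold change over E14 retina was 1.44 in T58A and 6.94 in young lines, and the test of the difference itself gave −5.49 (limma adjusted p = 0.00686), with all 3 T58A lines below all 3 young lines. Of 23 alternatives, the call was kept in all except the fit of the 6 libraries compared. The sign was not put to a test by them, since the groups did not overlap. Leaving out an E14 or old library cannot change this log2 difference, only its adjusted p.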

How the results depend on the processing

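Over 23 alternatives per comparison, all 4 subunit genes stayed called in young and in old lines against E14 retina. Other scalings lowered the median of all genes against E14 retina from −0.031, −0.049 and −0.096 to as low as −0.46 in log2 fold change. Between T58A and old lines 1 subunit gene, PDE6B, was called with the deposited values as they stand (adjusted p = 0.0364), and the count ranged from 0 to 1 when each library was left out. Between T58A and young lines 0 were called in the fit of only the 6 libraries compared, and 1 to 2 when each library was left out. Small uncalled differences changed sign. PDE6H between old and young lines was 0.065 with the deposited values as they stand and −0.87 to 0.36 with 1 library left out, and PDE6C was −1.70 to 0.36. PDE6H between T58A and old lines was 0.30 at a common column total, 0.072 without TMM factors, 0.0042 with median-of-ratios size factors and −0.49 to 0.41 with 1 library left out. Between T58A and young lines it was 0.29 at a common column total, 0.065 without TMM factors and −0.90 to 0.28, and PDE6G was 0.038 without TMM factors and −0.61 to 0.11 with 1 library left out. With 1 library left out, the shift of all DMC lines from E14 retina was −0.061 to 0.31 for the ratio of PDE6G to PDE6H and −0.23 to 0.90 for that of PDE6B to PDE6G. Without TMM factors the correlations were −0.071 for PDE6H and PDE6B and −0.12 for PDE6B and PDE6G. The cause of these changes was not tested. Of 64 calls of the list genes with the largest changes, 39 held under every alternative. Counts of all genes called ranged from 0 to 98 between old and young, 0 to 2610 between T58A and old and 3 to 3463 between T58A and young lines, highest each time without DMC5. The 13 to 22 reads of PDE6C per E14 retina limit the precision of its fold changes. No paired analysis was possible because the groups share no replicate numbers.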

Other observations

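Cone opsins differed among lines that all expressed the cone PDE6 subunits (genes chosen after their values were seen). OPN1MSW was at 0 reads in all 3 E14 retinas, 4.71, 155 and 554 normalized counts in DMC8, DMC9 and DMC10, and 2673 in DMC1, but at 1.88 in DMC2, 0 in DMC3 and at most 4.59 in T58A lines. OPN1LW, the red-sensitive opsin, was at 150, 298 and 306 in E14 retina, 632 to 915 in young lines, 2461 in DMC2, 225 in DMC1 and 406 in DMC3, and 13.4, 311 and 39.0 in DMC4, DMC5 and DMC6. DMC1 thus had the most OPN1MSW and DMC2 the most OPN1LW of all lines. Neither opsin was called in any comparison (limma).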
